A study of Mus musculus with 8 samples.

Results

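Primary mouse hepatocytes with intact heme oxygenase 1 were compared after knockdown of heme oxygenase 2 and after a control hairpin. The comparison takes the 4 arrays of HO1+/+ cells out of the 8 arrays of the series: 2 titled HO2 knockdown, from cells that carried a short hairpin RNA (shRNA) against HO2, and 2 titled control, from cells that carried a scrambled shRNA. All 19937 genes that could be read with 1 gene symbol from the platform table were included, each through its brightest probe set. Both groups were hepatocytes of male BALB/c mice with the HO1+/+ genotype, transduced with a lentiviral pLKO.1 vector, held in puromycin from 24 h onwards and, after 3 days of selection, exposed for 30 min to dexamethasone at 1 µM, with harvest after a further 28 h. The other 4 arrays, 2 each of cells labelled HO1-/- (titled HO1 ko) with HO2 shRNA and with scrambled shRNA, are used below to ask whether the changes also appeared there. Hmox1 did not read lower in those arrays (12.40 and 12.47 with HO2 shRNA, 11.98 and 11.97 with scrambled shRNA) than in HO1+/+ control (11.46 and 11.40), so its signal does not bear out the knockout label. The position of its probes relative to the deleted part was not analysed here, and the genotype below is that of the labels. Only 1 hairpin against HO2 was used, so effects of HO2 loss and effects of that hairpin on other transcripts cannot be told apart. The labels call the 2 samples of a group biological replicates but name no animal or culture for each, so the p-values rest on the variation among these samples, which may be technical.

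Heme oxygenases open the heme ring and release carbon monoxide, iron and biliverdin, which biliverdin reductase turns into bilirubin. Heme oxygenase 1, encoded by Hmox1, is induced by heme and stress, whereas heme oxygenase 2, encoded by Hmox2, is made constitutively. Hepatocytes make much heme of their own, mainly for cytochrome P450 enzymes, and heme also binds the clock repressor REV-ERB alpha and other regulators. Once plated, primary hepatocytes are known to lose part of their liver-specific transcription, to activate inflammatory genes and, in the presence of growth factors, to move towards division. The title of the series places the arrays in the question of how carbon monoxide metabolism bears on circadian transcription.

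Signals were on a log2 scale, on which 1 unit is a doubling, and the arrays had medians between 7.61 and 7.70. Across genes the 2 HO2 knockdown arrays correlated with r = 0.9984 and the 2 control arrays with r = 0.9967, whereas HO2 knockdown and control arrays correlated with r between 0.9842 and 0.9863. Hepatocyte markers were the brightest marker list: the log2 of their summed signal was 16.90 and 16.94 in HO2 knockdown and 16.14 and 16.16 in control, and albumin (Alb) read 13.85 and 13.92 in HO2 knockdown and 13.32 and 13.40 in control. For 22 Kupffer cell and macrophage markers the sums were 13.01 and 13.05 in HO2 knockdown and 13.23 and 13.28 in control, with 0 members higher, 4 lower and the macrophage receptor gene Adgre1 at -0.04 (adjusted p = 0.795); 2 were lower without HO2 knockdown replicate 1, and 2 higher and 3 lower after a further quantile normalization. Neutrophil markers summed to 10.43 and 10.41 in HO2 knockdown and 11.34 and 11.29 in control, with 0 of 13 higher and 3 lower. Without Mmp9, left out after its values were seen, the other 12 summed to 9.77 and 9.77 in HO2 knockdown and 10.01 and 9.93 in control. Of all genes tested, 16.5% were higher and 16.7% lower at a limma adjusted p under 0.05. The counts of lower macrophage and neutrophil markers were close to that share of all genes. Stellate cell markers (13.87 and 13.92 in HO2 knockdown, 13.81 and 13.81 in control, 5 of 19 higher and 3 lower), sinusoidal endothelial markers (12.31 and 12.35 in HO2 knockdown, 12.19 and 12.21 in control, 6 of 18 higher and 2 lower) and cholangiocyte markers (14.12 and 14.09 in HO2 knockdown, 14.08 and 14.05 in control, 1 of 12 higher and 1 lower) differed less in their sums. Among their members, 2 endothelial and 1 stellate marker rose at least 2-fold. T and NK cell markers (10.55 and 10.53 in HO2 knockdown, 10.80 and 10.58 in control) and B cell markers (10.28 and 10.30 in HO2 knockdown, 10.48 and 10.31 in control) had 0 members higher and 1 lower each. In these bulk samples, fewer cells of a type and less RNA per cell cannot be told apart.

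The hairpin's target was strongly reduced. Hmox2 read 8.32 and 8.38 in HO2 knockdown and 11.41 and 11.57 in control, a log2 fold change of -3.14 (95% confidence interval -3.275 to -2.998, limma adjusted p = 2.59e-14) that leaves 11.4% of the control signal. The groups lay far apart. Hmox2 was the second largest decrease among called genes whose groups did not overlap, with predicted genes and small RNAs left out. Hmox1 read 11.54 and 11.57 in HO2 knockdown and 11.46 and 11.40 in control, a difference of 0.125 (95% confidence interval 0.027 to 0.223) with a limma adjusted p of 0.048. Its call was lost without control replicate 2 (0.09, adjusted p = 0.195), without HO2 knockdown replicate 1 (0.145, adjusted p = 0.0889) and without HO2 knockdown replicate 2 (0.11, adjusted p = 0.202). Of the biliverdin reductases, which act on the oxygenases' product, Blvrb fell by 0.61 on the log2 scale and Blvra was at -0.14 (adjusted p = 0.185).

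Heme synthesis and iron genes moved by less than 2-fold and in both directions. Of 7 heme synthesis genes 3 were higher, 2 lower and 2 did not pass. Fech, which inserts iron into protoporphyrin in the final step, read 11.03 and 11.06 in HO2 knockdown and 10.27 and 10.44 in control. Alas1, the rate-limiting first enzyme, which heme represses, read 12.17 and 12.15 in HO2 knockdown and 11.82 and 11.76 in control. Both were higher in each knockdown array than in either control array, by 0.69 and 0.37 on the log2 scale. Such a lack of overlap, in either direction, was found in 65.4% of all genes tested. The intermediate enzymes Alad and Cpox fell by 0.57 and 0.38. Of 20 genes of heme and iron handling 6 rose and 1 fell, among them the iron sensor gene Tfr2 (0.83), the iron exporter gene Slc40a1 (0.64), the heme-binding plasma protein gene Hpx (0.42) and the iron hormone gene Hamp (0.28). The transferrin receptor gene Tfrc was at -0.15 (adjusted p = 0.144).

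**Figure D1:**
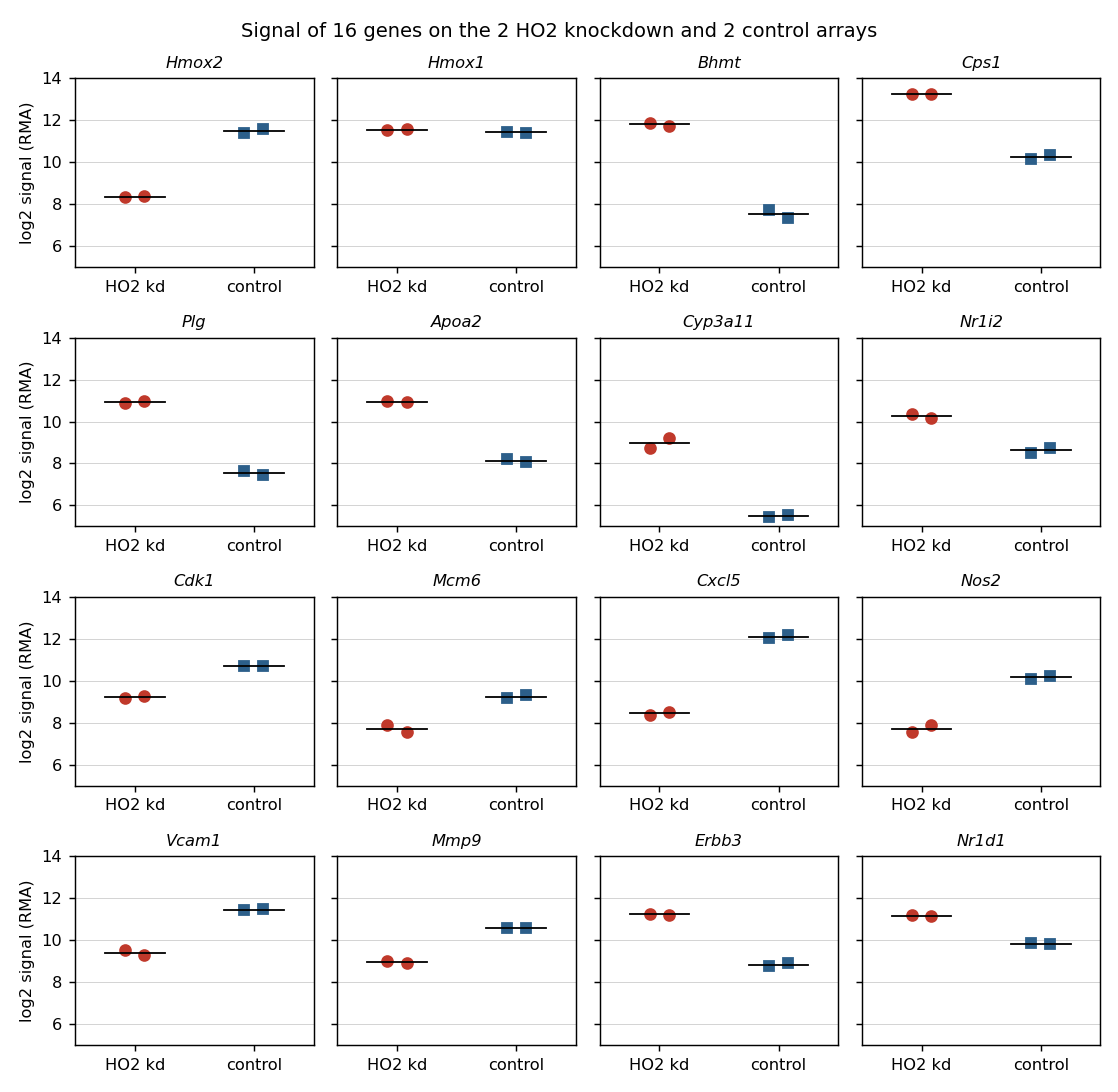
Log2 signal (RMA) of 16 genes on each array, with HO2 knockdown (circles, 2 arrays) left of control (squares, 2 arrays) and horizontal lines at the group means. Hmox2 lies far lower in HO2 knockdown (8.32 and 8.38) than in control (11.41 and 11.57), and the Hmox1 arrays lie close together.

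Many genes passed the test, most of them with small changes. Of 19937 genes, 6620 (33.2%) had an adjusted p under 0.05, with 3293 (16.5%) higher and 3327 (16.7%) lower in HO2 knockdown. Higher genes made up 49.7% of the calls as deposited, 62.9% when each array was centred on its own median and 49.2% after a further quantile normalization, so this split moved with the scaling. The median absolute log2 fold change of the called genes was 0.36, and 241 genes (1.21%) were at least 2-fold higher while 153 (0.767%) were at least 2-fold lower. In 13042 genes (65.4%) the HO2 knockdown and control arrays did not overlap. The median of all genes was -0.07, and counts of list members above and below are read against these shares. Where a list had 0 to 3 members called in one direction, leaving out 1 array moved that count by at most 5. Leaving out an HO2 knockdown array lowered the number of genes called lower to 2126 (replicate 1) or 2196 (replicate 2).

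The largest increase was in Bhmt, which remethylates homocysteine to methionine in the liver. It read 11.88 and 11.73 in HO2 knockdown and 7.72 and 7.335 in control, a log2 fold change of 4.27 (SE 0.14, adjusted p = 2.93e-12) or 19.3-fold. Next by fitted size, with predicted genes and small RNAs left out, were the fatty acid hydroxylase gene Cyp4a31 (3.67) and the plasma glycoprotein gene Hrg (3.54). Cyp4a31 was dim in control (4.96 and 5.86, against 8.78 and 9.39 in HO2 knockdown), and its control arrays lay far apart, so the size of its change is imprecise (SE 0.22). The largest decrease was in the neutrophil chemokine gene Cxcl5, which read 8.38 and 8.53 in HO2 knockdown and 12.05 and 12.17 in control (log2 fold change -3.65, SE 0.08, adjusted p = 5.56e-14). After Hmox2, in the same ranking, came Cxcl3 (-3.06) and Ccl20 (-2.67), also chemokine genes. Outside the named groups, the neighbouring genes Phf11c and Setdb2, the second a histone methyltransferase gene, were 3.28 and 2.94 higher. Mug1, a protease inhibitor gene of rodent plasma, and Acmsd, an enzyme of tryptophan breakdown, were 2.94 and 2.74 higher.

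**Figure D2:**
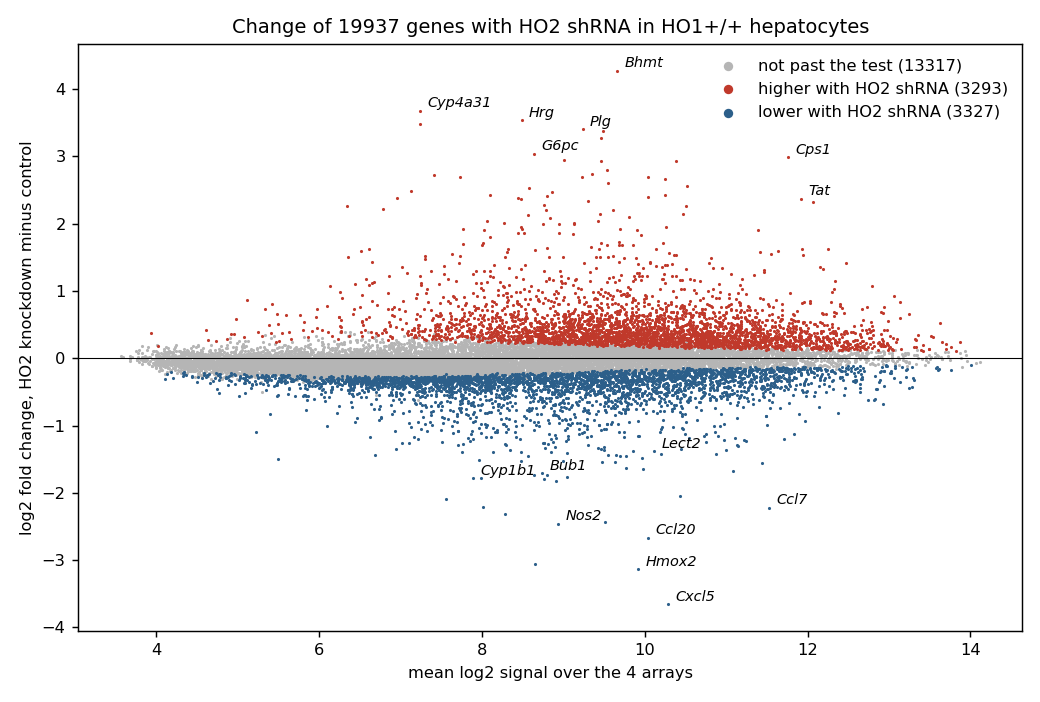
Mean log2 signal over the 4 arrays (horizontal axis) against the log2 fold change, HO2 knockdown minus control (vertical axis), for all 19937 genes, coloured by the limma call at an adjusted p under 0.05. Changes run from 4.27 (Bhmt) to -3.65 (Cxcl5), and most called genes lie close to 0.

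Clotting and fibrinolysis genes, nearly all of which encode proteins secreted by hepatocytes, were the plasma protein group with the largest median. Of 23 genes on the array, 15 were higher, 0 were lower and 8 did not pass the test, 10 of the rises were at least 2-fold, and the median was 0.94. Plg, the precursor of the clot-dissolving enzyme plasmin, read 10.876 and 11.002 in HO2 knockdown and 7.62 and 7.46 in control (log2 fold change 3.40, SE 0.08, adjusted p = 9.4e-14). Hrg, whose protein binds heme as well as plasminogen, read 10.21 and 10.31 in HO2 knockdown and 6.73 and 6.71 in control. Fgg, the gamma chain of fibrinogen, read 11.84 and 11.87 in HO2 knockdown and 8.801 and 9.039 in control. In each of these genes both knockdown arrays lay far above both control arrays. The plasmin inhibitor gene Serpinf2 was 2.66 higher, the factor IX gene F9 1.11, the antithrombin gene Serpinc1 0.94 and the prothrombin gene F2 0.79.

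Apolipoproteins and the machinery that loads lipid onto them were also higher. Of 16 members 13 rose, 1 fell and 2 did not pass, 8 rose at least 2-fold, and the median was 0.86. Apoa2, which encodes a main protein of high-density lipoprotein, read 10.96 and 10.92 in HO2 knockdown and 8.21 and 8.06 in control (log2 fold change 2.80, SE 0.07, adjusted p = 9.4e-14). Apoa1, which encodes the other, read 13.12 and 13.32 in HO2 knockdown and 11.01 and 10.79 in control. Lcat, which esterifies cholesterol on that particle, Apoh and Apoc3 rose by 1.71, 1.598 and 1.42, and Apoe and the lipid transfer gene Mttp by 0.66 and 0.65. Apob, the structural protein of low-density lipoprotein, was at -0.15 (adjusted p = 0.0169), a call that was lost without control replicate 2 (-0.10) and without HO2 knockdown replicate 2 (-0.11). The thyroid hormone carrier gene Ttr and the angiotensinogen gene Agt rose by 0.84 and 1.58. Complement genes moved both ways, with 8 of 19 higher and 4 lower.

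Transcription factors that maintain hepatocyte identity were mostly higher as well. Of 20 such genes, 15 were higher, 2 were lower and 3 did not pass the test, with a median of 0.41. Nr1i2, which encodes the drug-sensing nuclear receptor PXR, read 10.35 and 10.16 in HO2 knockdown and 8.51 and 8.75 in control (log2 fold change 1.62, SE 0.09, adjusted p = 2.22e-09). Onecut1 and Prox1, regulators of liver development, were 1.505 and 1.38 higher, and Creb3l3, a membrane-bound factor of fasting metabolism, was 1.09 higher. Hnf4a, a central factor of hepatocyte identity, read 12.80 and 12.80 in HO2 knockdown and 12.04 and 12.07 in control. Ppara (0.72), Foxa2 (0.58) and Cebpa (0.50) rose by amounts of that order. Of 24 other nuclear receptors 13 rose and 0 fell. Nr0b2, which encodes the repressor SHP that restrains bile acid synthesis, read 10.69 and 10.73 in HO2 knockdown and 8.35 and 8.66 in control. Pparg and the oxysterol receptor gene Nr1h3 were 0.78 and 0.68 higher, while the bile acid receptor gene Nr1h4 was at 0.16 (adjusted p = 0.115). Nr1i3, which encodes the receptor CAR, rose by 0.43, a call that was lost without control replicate 1 (0.31) and without HO2 knockdown replicate 2 (0.31).

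Drug and bile acid handling genes rose in most families. Among Cyp1 to Cyp3 cytochromes, the heme enzymes that oxidise drugs and steroids, 28 of 39 rose, 3 fell and 8 did not pass (median 0.56). Cyp3a11 read 8.75 and 9.21 in HO2 knockdown and 5.44 and 5.56 in control (log2 fold change 3.48, SE 0.14, adjusted p = 3.92e-11). Cyp2b10 read 11.17 and 11.19 in HO2 knockdown and 7.76 and 7.85 in control. These 2 genes are classical targets of PXR and CAR, and in both the knockdown arrays lay far above the control arrays. Cyp2a12, Cyp2j5 and Cyp1a2 rose by 2.72, 2.37 and 2.00, and Cyp2e1 by 0.39, a call lost without HO2 knockdown replicate 1 (0.32). Cyp1b1, which is expressed mainly outside hepatocytes, went the other way, reading 7.16 and 6.85 in HO2 knockdown and 8.64 and 8.93 in control. Of 33 conjugation enzymes 20 rose and 1 fell, with Ugt3a2 (2.22) and Sult1d1 (1.63) among the largest. Of 25 uptake and efflux transporters 14 rose and 3 fell. Slc10a1, the sodium-dependent bile acid importer, read 9.69 and 9.56 in HO2 knockdown and 7.66 and 7.34 in control. The organic anion importer gene Slco1a4, the sterol exporter gene Abcg5 and the phospholipid exporter gene Abcb4 were 2.05, 2.04 and 2.01 higher. Of 16 bile acid synthesis genes 9 rose and 0 fell, with the conjugating enzyme gene Baat at 1.37, Cyp8b1 at 1.04 and the rate-limiting enzyme gene Cyp7a1 at 0.64. Cyp7a1 was dim, reading 6.03 and 6.13 in HO2 knockdown and 5.50 and 5.38 in control.

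Amino acid metabolism followed the same direction. Of 17 genes of the methionine cycle and transsulfuration 10 rose, 1 fell and 6 did not pass (median 0.81). Besides Bhmt these were led by Mat1a, which makes the methyl donor S-adenosylmethionine in the adult liver (1.95), the cysteine dioxygenase gene Cdo1 (1.91) and Bhmt2 (1.73). Cth, which releases cysteine, rose by 0.89, and the methyl-consuming enzyme gene Gnmt was at 0.16 (adjusted p = 0.285). Of 31 genes of amino acid breakdown 20 rose and 0 fell, or 13 without HO2 knockdown replicate 1. Tat, the glucocorticoid-induced tyrosine aminotransferase, read 13.10 and 13.12 in HO2 knockdown and 10.79 and 10.68 in control. The tyrosine and tryptophan enzymes Hpd and Tdo2 were 2.20 and 2.11 higher, and the kynurenine aminotransferase gene Aadat was 1.86 higher.

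Hepatocytes near the portal vein and near the central vein express different enzymes, and the list of each zone was counted. Of 14 periportal genes 11 rose, 0 fell and 3 did not pass, with a median of 0.98. Of 17 pericentral genes 7 rose, 4 fell and 6 did not pass, with a median of 0.15. The difference between the lists was not tested. Cps1, the first enzyme of the urea cycle, read 13.27 and 13.24 in HO2 knockdown and 10.17 and 10.36 in control (log2 fold change 2.99, SE 0.06, adjusted p = 2.59e-14). Hsd17b13, Pck1, Etnppl and the histidase gene Hal, also periportal, rose by 2.33, 2.28, 1.99 and 1.30. Among pericentral genes Cyp1a2 rose by 2.00 and the glutamine synthetase gene Glul by 0.77, while the glutamate transporter gene Slc1a2 fell by 1.17. Cyp2e1, also pericentral, rose by 0.39, a call lost without HO2 knockdown replicate 1.

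Sugar and lipid genes split by function. G6pc, which releases free glucose in the final step of glucose production, read 10.27 and 10.05 in HO2 knockdown and 7.23 and 7.01 in control. Of 28 glycolysis genes and hexose transporter isoforms 2 rose, 12 fell and 14 did not pass (median -0.17). Among the rises was Slc2a2, the liver glucose transporter, which read 9.89 and 9.61 in HO2 knockdown and 7.65 and 7.86 in control. The lactate exporter gene Slc16a3, the hexokinase gene Hk2 and Pfkl fell by 1.01, 0.68 and 0.64, and the pyruvate kinase gene Pkm fell by 0.32. Slc2a1, the transporter of most other cells, was at -0.01 (adjusted p = 0.929). Of 23 genes of glycogen and insulin signalling 14 rose and 4 fell, or 2 fell with centred arrays, without control replicate 2 or without either HO2 knockdown array. They included Igfbp1 (1.62), the liver glycogen synthase gene Gys2 (1.22) and the insulin receptor substrate gene Irs2 (1.02). Sterol synthesis was lower: of 21 genes 1 rose, 10 fell and 10 did not pass, with Fdps, Sc5d, Insig1 and Cyp51 at -0.73, -0.60, -0.59 and -0.52. Lipogenic genes had 12 of 23 higher and 3 lower, with Acacb at 0.97 and the fatty acid synthase gene Fasn at -0.10 (adjusted p = 0.193). Of 19 genes of mitochondrial fatty acid oxidation 9 rose and 1 fell, with Pdk4, Acadm and Cpt1a 0.98, 0.53 and 0.37 higher.

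**Figure D3:**
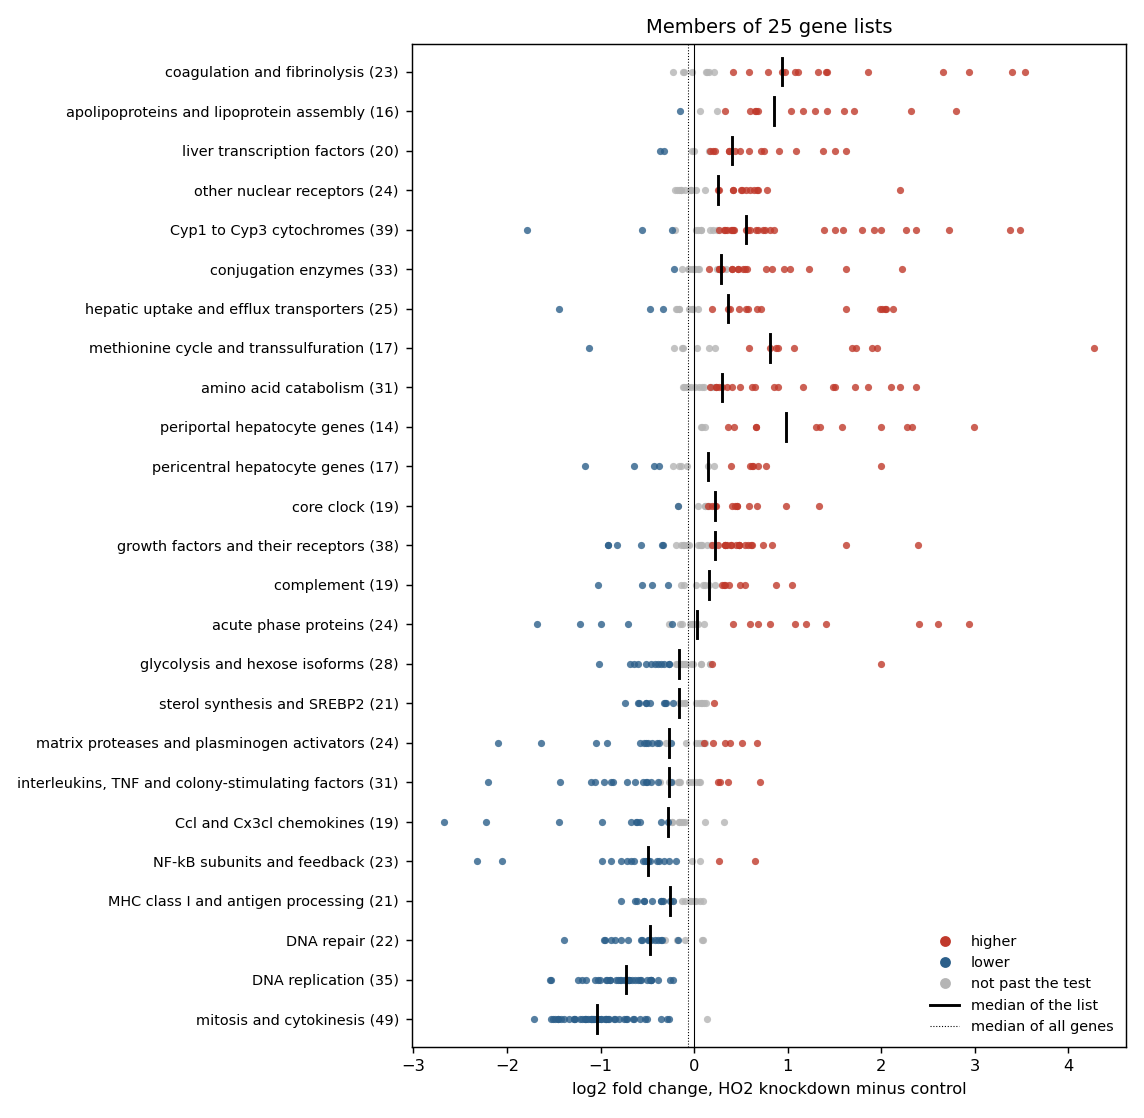
Log2 fold change, HO2 knockdown minus control, of every measured member of 25 gene lists (list sizes in parentheses), with the list median as a black bar and the median of all genes (-0.07) as a dotted line. Lists of liver function have medians up to 0.98, and those of cell division lie lowest, at -0.73 for DNA replication and -1.04 for mitosis.

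Genes of cell division were lower almost without exception among those measured. Of 35 DNA replication genes 0 rose and 35 fell, with a median of -0.73. Of 49 mitosis and cytokinesis genes 0 rose, 48 fell and 1 did not pass, 27 fell at least 2-fold, and the median was -1.04. Of 22 DNA repair genes 17 fell and 0 rose, among them Exo1 (-1.39) and Brca1 (-0.57). Cdk1, the kinase that drives entry into mitosis, read 9.16 and 9.29 in HO2 knockdown and 10.73 and 10.69 in control (log2 fold change -1.49, SE 0.07, adjusted p = 2.19e-10). Bub1, a kinase of the spindle checkpoint, read 7.92 and 7.85 in HO2 knockdown and 9.47 and 9.73 in control. Top2a, the topoisomerase that untangles chromosomes, read 8.21 and 8.26 in HO2 knockdown and 9.68 and 9.85 in control. On the linear scale Cdk1 stood at 35.7% of control, Bub1 at 30.5% and Top2a at 34.7%. Ncapg, a condensin subunit gene, was at -1.51, the mitotic kinase gene Aurkb at -1.34 and Cdc20, which activates the anaphase-promoting complex, at -1.28. Among replication genes Rrm2, which supplies deoxynucleotides, read 8.629 and 8.798 in HO2 knockdown and 10.26 and 10.23 in control, and the helicase subunit gene Mcm6 read 7.88 and 7.55 in HO2 knockdown and 9.16 and 9.32 in control. The polymerase epsilon genes Pole2 and Pole fell by 1.24 and 1.2, Mcm2 by 1.06, the origin-licensing genes Cdc6 and Cdt1 by 0.83 and 0.39, and the sliding clamp gene Pcna by 0.58.

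Regulators of the G1 phase moved in both directions. Of 26 members 4 rose, 13 fell and 9 did not pass, with a median of -0.19. The cyclin genes Ccne2 and Ccnd1 were at -0.73 and -0.72, and the transcription factor gene E2f1 was at -0.54. Myc was at -0.19 (adjusted p = 0.00577), a call lost without HO2 knockdown replicate 1 (-0.13). Of 26 ribosome biogenesis genes 0 rose and 11 fell, or 6 without HO2 knockdown replicate 1. Targets of p53, which halts division after DNA damage, had 6 of 20 higher and 1 lower. Sesn1 and Btg2 rose by 0.82 and 0.69, and Ccng1 was at -0.04 (adjusted p = 0.447).

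Because these genes moved together, their promoters were read for letters of known cell cycle elements. The cell cycle genes homology region (CHR, TTTGAA on either strand) recruits the DREAM complex, which holds mitotic genes silent in resting cells, and the CCAAT box (either strand) binds the factor NF-Y. The windows, from 250 bases before to 50 bases after each transcription start in RefSeq (GRCm38.p6), covered 41 of the 49 mitosis genes and 30 of the 35 replication genes. The following stretches are printed 5′ to 3′ on the strand of the gene with CHR and CCAAT letters in capitals. The first 4 are from mitosis genes named above and the fifth is from the replication gene Mcm6, in which no CHR letters were found.
Top2a, chr11:99024170-99024309, minus strand: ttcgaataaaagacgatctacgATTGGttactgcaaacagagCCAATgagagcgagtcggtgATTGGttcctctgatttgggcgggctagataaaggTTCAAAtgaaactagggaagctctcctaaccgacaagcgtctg
Cdk1, chr10:69352893-69353032, minus strand: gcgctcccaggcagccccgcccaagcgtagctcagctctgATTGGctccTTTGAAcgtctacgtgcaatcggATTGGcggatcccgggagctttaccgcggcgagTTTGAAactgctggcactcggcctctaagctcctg
Cdc20, chr4:118437324-118437463, minus strand: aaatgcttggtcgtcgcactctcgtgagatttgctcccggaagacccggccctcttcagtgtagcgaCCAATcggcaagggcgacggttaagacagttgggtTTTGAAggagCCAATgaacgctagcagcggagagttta
Ncapg, chr5:45669725-45669914, plus strand: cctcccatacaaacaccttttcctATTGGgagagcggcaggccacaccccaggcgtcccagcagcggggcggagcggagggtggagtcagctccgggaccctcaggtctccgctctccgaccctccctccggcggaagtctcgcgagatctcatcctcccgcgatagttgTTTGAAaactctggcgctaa
Mcm6, chr1:128359686-128359825, minus strand: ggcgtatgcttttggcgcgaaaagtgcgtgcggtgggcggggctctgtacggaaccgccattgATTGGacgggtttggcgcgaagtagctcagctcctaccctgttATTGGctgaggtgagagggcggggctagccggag

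CHR letters stood in 31 of 45 windows of mitosis genes (68.9%), in 4 of 37 windows of replication genes (10.8%) and in 14.8% of 19115 windows of all genes tested. Among genes at least 2-fold lower, whatever their function, 46 of 128 windows held them (35.9%), and among genes at least 2-fold higher 35 of 213 did (16.4%). CCAAT letters stood in 75.6% of mitosis windows, 56.8% of replication windows and 37.4% of those of all genes tested, and both motifs together in 60.0%, 8.11% and 5.85%. An excess of CCAAT letters was not confined to cell division genes. The core clock list, of which 12 of 19 genes rose, held them in 16 of 24 windows (66.7%). Neither motif contains the other, and a match of letters is not a measured binding site. The genes at least 2-fold lower include mitosis genes, so their share is not independent of the mitosis list.

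**Figure D4:**
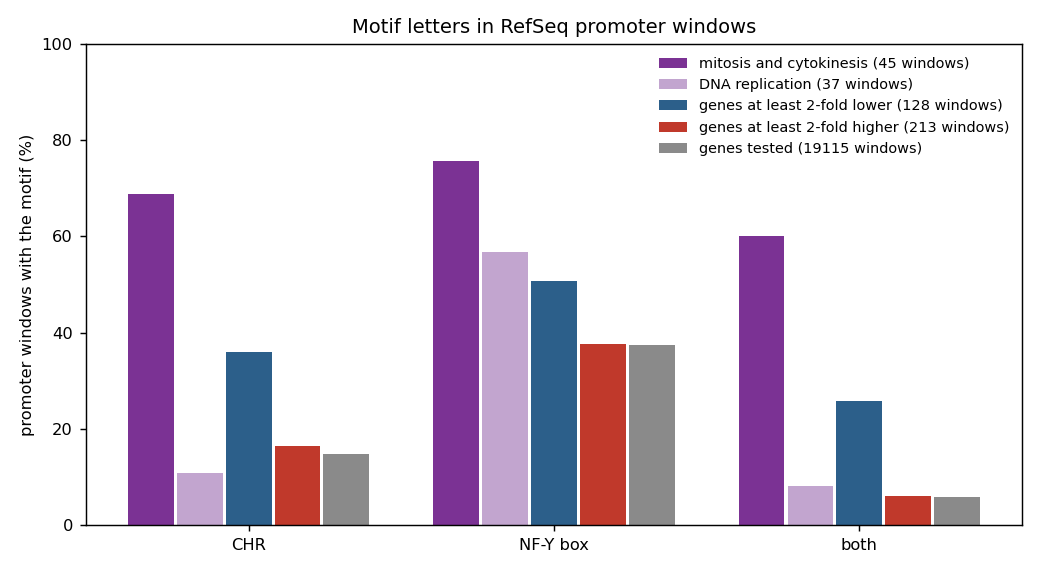
Percentage of RefSeq promoter windows that hold CHR letters, NF-Y box (CCAAT) letters or both, for mitosis genes, DNA replication genes, genes at least 2-fold lower and at least 2-fold higher in HO2 knockdown, and all genes tested. The CHR bar of mitosis genes reaches 68.9%, against 10.8% for replication genes and 14.8% for all genes tested.

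Many chemokine, cytokine and NF-kB genes were lower. Cxcl5, which attracts neutrophils, is given above. Cxcl3 read 7.13 and 7.12 in HO2 knockdown and 10.10 and 10.27 in control, and Cxcl2 was at -2.43. Of 19 Ccl and Cx3cl chemokine genes 10 fell, 0 rose and 9 did not pass. Ccl20 read 8.74 and 8.67 in HO2 knockdown and 11.36 and 11.39 in control, and both knockdown arrays lay far below both control arrays. Ccl7, Ccl3 and Ccl2, which attract monocytes, fell by 2.22, 1.44 and 0.67. Of 31 genes listed under interleukins, tumour necrosis factors and colony-stimulating factors 15 fell and 4 rose. The growth factor gene Csf2 was at -2.20, Il1a at -1.44 and Il6 at -1.10. Ptges, which encodes the enzyme prostaglandin E synthase and no cytokine, was at -1.06. Il1a read 5.93 and 6.01 in HO2 knockdown, and its control arrays lay apart (7.085 and 7.732). Il6 was dim, reading 4.63 and 4.73 in HO2 knockdown and 5.48 and 6.08 in control. Tnf was at -0.02 (adjusted p = 0.909), and Il1b at -0.37 (adjusted p = 0.0976) passed without control replicate 2 (-0.65, adjusted p = 0.00289).

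The NF-kB pathway, a known activator of such genes, had 19 of 23 measured subunits and feedback genes lower, 2 higher and 2 that did not pass (median -0.50). Vcam1, an adhesion molecule, read 9.52 and 9.30 in HO2 knockdown and 11.45 and 11.47 in control (log2 fold change -2.05, SE 0.07, adjusted p = 9.04e-12). The feedback inhibitor genes Tnip3, Tnfaip3 and Nfkbia were at -2.32, -0.88 and -0.53, and the receptor gene Cd40 was at -0.99. Nos2, the inducible nitric oxide synthase and itself a heme enzyme, read 7.54 and 7.87 in HO2 knockdown and 10.10 and 10.23 in control. Of 21 genes of MHC class I and antigen processing 11 fell and 0 rose, or 6 and 7 fell without HO2 knockdown replicate 1 and 2. The immunoproteasome gene Psmb10 and the interferon factor gene Irf1 fell by 0.79 and 0.63. The macrophage and neutrophil marker sums given above were also lower in HO2 knockdown, the neutrophil sum mostly through Mmp9, and their part in the result was not tested.

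Acute phase proteins, which hepatocytes secrete in inflammation, went both ways, with 10 of 24 higher, 5 lower and a median of 0.03. The rises included Fgg and the inter-alpha-trypsin inhibitor genes Itih4 (2.60) and Itih3 (2.41). The decreases included Saa3, a serum amyloid gene, which read 10.11 and 10.39 in HO2 knockdown and 11.93 and 11.93 in control, and the orosomucoid gene Orm2 (-0.999). Orm1 was at -0.24, a call lost without control replicate 2 (-0.22) and without HO2 knockdown replicate 1 (-0.11). Saa1 was dim and at -0.03 (adjusted p = 0.892).

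Genes of matrix turnover and adhesion were partly lower. Of 24 matrix proteases and plasminogen activators 12 fell and 6 rose, or 3 rose without HO2 knockdown replicate 2. Mmp9, a gelatinase, read 8.98 and 8.93 in HO2 knockdown and 10.61 and 10.58 in control, and Serpinb2, an inhibitor of plasminogen activators, read 6.41 and 6.62 in HO2 knockdown and 8.47 and 8.75 in control. Timp1 and Mmp13 fell by 1.05 and 0.93. Mmp9 is also on the neutrophil list, of which 10 of 13 members did not pass, and it carries most of the difference in that list's sum. Of 29 junction and integrin genes 13 rose and 7 fell, or 4 fell without HO2 knockdown replicate 2. The integrin genes Itgav and Itga2 were at -1.20 and -1.13. The gap junction genes moved in opposite directions: Gjb1, which encodes the main liver connexin, read 8.89 and 8.82 in HO2 knockdown and 8.10 and 7.99 in control, and Gja1, the connexin of many other cells, read 7.50 and 7.47 in HO2 knockdown and 8.30 and 8.43 in control. The epithelial cadherin gene Cdh1 rose by 0.42 and the keratin gene Krt8 by 0.24, while the mesenchymal filament gene Vim was at 0.00 (adjusted p = 0.991).

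Growth factor signalling genes had 20 of 38 members higher and 6 lower (median 0.22). Erbb3, a receptor for neuregulins, read 11.26 and 11.21 in HO2 knockdown and 8.78 and 8.90 in control (log2 fold change 2.40, SE 0.06, adjusted p = 1.29e-13). The hepatocyte growth factor receptor gene Met rose by 0.61, and the epidermal growth factor ligand gene Ereg and the receptor gene Tgfbr1 each fell by 0.92. Of 19 fetal and progenitor liver genes 8 rose and 4 fell, or 2 fell with centred arrays or without control replicate 1, and 1 without HO2 knockdown replicate 1. Bex1, Gpc3 and Afp, the last encoding the fetal counterpart of albumin, were 2.70, 1.18 and 1.15 higher.

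Clock genes are the subject of the series' title, and all samples were taken at a single time after dexamethasone, so levels and not rhythms can be compared. Of 19 core clock genes 12 rose, 1 fell and 6 did not pass, with a median of 0.23. Nr1d1, the gene of the clock repressor REV-ERB alpha, whose ligand is heme, read 11.21 and 11.14 in HO2 knockdown and 9.87 and 9.81 in control. The repressor gene Cry2 was 0.98 higher, the output factor genes Dbp and Tef 0.67 and 0.59, the activator gene Clock 0.44 and Per1 0.40. Per2 rose by 0.23, a call lost without control replicate 1 (0.21) and without HO2 knockdown replicate 1 (0.14). Arntl, the partner of Clock, was at 0.12 (adjusted p = 0.264) and Cry1 at 0.04 (adjusted p = 0.756). CLOCK and its partner bind the E-box CACGTG, a palindrome, and 6 of 24 windows of the 16 clock genes with a promoter entry held it (25%), against 8.26% of windows of all genes tested and 9.39% of windows of genes at least 2-fold higher. Stretches of 2 clock promoters with the E-box in capitals are given 5′ to 3′ (RefSeq, GRCm38.p6), since these genes are output and feedback parts of the loop.
Tef, chr15:81802493-81802632, plus strand: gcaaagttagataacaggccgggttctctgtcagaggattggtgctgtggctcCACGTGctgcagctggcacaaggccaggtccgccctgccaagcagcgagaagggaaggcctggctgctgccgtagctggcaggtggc
Per1, chr11:69098749-69098888, plus strand: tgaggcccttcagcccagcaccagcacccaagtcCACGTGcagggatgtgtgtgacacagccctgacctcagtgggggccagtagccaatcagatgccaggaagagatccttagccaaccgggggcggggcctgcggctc

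Lists of cellular stress and energy supply had members called in both directions as deposited, with list medians between -0.045 and 0.089. Over all genes tested 16.5% were higher and 16.7% lower, so these counts show no clear direction. Targets of NRF2, which answers oxidative stress and heme, had 4 of 26 higher and 6 lower as deposited, 10 higher and 5 lower with centred arrays, and 7 higher without control replicate 2. Gpx3, a secreted glutathione peroxidase, was 1.35 higher, Srxn1 was at -0.60 and Nqo1 at -0.22 (adjusted p = 0.144). The unfolded protein and integrated stress response had 8 of 29 higher and 3 lower as deposited. Centred arrays gave 9 higher and 0 lower, and a further quantile normalization 8 higher and 5 lower. Hypoxia-induced genes had 5 of 17 higher and 5 lower, or 3 lower without HO2 knockdown replicate 2. Subunits of oxidative phosphorylation had 2 of 29 higher and 5 lower, with 3 lower when control replicate 2 or either HO2 knockdown array was left out, and 4 higher and 3 lower with centred arrays, and 1 higher and 11 lower after a further quantile normalization.

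Some secreted liver proteins went against the rise of the others. Lect2, a hepatokine gene, read 9.43 and 9.42 in HO2 knockdown and 10.85 and 10.76 in control (log2 fold change -1.38, SE 0.06, adjusted p = 1.29e-10). Mbl2, a mannose-binding lectin of the complement system, read 9.68 and 9.72 in HO2 knockdown and 10.72 and 10.73 in control. Both knockdown arrays were below both control arrays in each gene, and 65.4% of all genes had no overlap in either direction. The hepatocyte marker list, by contrast, had 13 of 16 members higher and 1 lower.

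The same hairpin was compared with scrambled shRNA in cells labelled HO1-/-. The group means of this comparison share no array with those of HO1+/+ cells. Both comparisons took the variance of each gene from the same fit to all arrays, so their calls are not independent. In cells labelled HO1-/-, 2031 genes (10.2%) were higher and 2556 (12.8%) lower. Called in both with a common direction were 2931 genes, or 44.3% of those called in HO1+/+ cells and 63.9% of those called in cells labelled HO1-/-, and 169 genes were called in opposite directions. Of the 394 genes changed at least 2-fold in HO1+/+ cells, 373 (94.7%) were called in the same direction in cells labelled HO1-/- and 6 in the opposite one. Bhmt rose by 4.04 there, Plg by 3.17, Apoa2 by 2.83 and Cyp3a11 by 3.14, and Nos2 fell by 2.02. For Bhmt the 95% interval in HO1+/+ cells ran from 3.98 to 4.57, and the difference between genotypes was -0.24 (SE 0.19, adjusted p = 0.438). Mitosis genes had 0 of 49 higher and 45 lower in cells labelled HO1-/- (median -0.71), and clotting genes 15 of 23 higher and 1 lower (median 0.44).

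The size of the change differed between genotypes for 2442 genes (12.2%), of which 932 had a more positive and 1510 a more negative change in cells labelled HO1-/-. That count ranged from 1301 without HO2 knockdown replicate 1 to 4744 without control replicate 2, and was 1526 without HO1 knockout replicate 1, 1365 without combined replicate 1 and 1349 without combined replicate 2. Of the 394 genes, 198 had a called difference. The knockdown itself also differed: Hmox2 fell by 2.30 on the log2 scale in cells labelled HO1-/-, reading 9.26 and 9.33 with HO2 shRNA and 11.59 and 11.60 with scrambled shRNA, against the 3.14 in HO1+/+ cells (difference 0.83, limma adjusted p = 3.86e-05). The largest named one was in Arg1, which encodes the urea cycle enzyme arginase and is also made by macrophages. It read 9.14 and 9.05 in HO2 knockdown and 7.73 and 7.30 in control, but 9.80 and 9.81 in cells labelled HO1-/- with HO2 shRNA and 11.39 and 11.19 in cells labelled HO1-/- with scrambled shRNA. Arg1 was higher with HO2 shRNA in HO1+/+ cells (1.58) and lower in cells labelled HO1-/- (-1.48), a difference of -3.06 (SE 0.16, adjusted p = 1.21e-08). Lrg1 (0.89 in HO1+/+ cells, -1.21 in cells labelled HO1-/-), Cd36 (1.40 and -0.46) and Cyp4a12a (1.05 and -0.76) also changed direction. With HO2 shRNA Lrg1 averaged 9.83 in HO1+/+ cells and 9.93 in cells labelled HO1-/-. With scrambled shRNA it averaged 8.94 and 11.14. Cd36 averaged 10.62 and 10.705 with HO2 shRNA, and 9.23 and 11.16 with scrambled shRNA. Cyp4a12a averaged 9.70 and 8.32 with HO2 shRNA, and 8.65 and 9.08 with scrambled shRNA. Fgg rose in both, by 2.93 in HO1+/+ cells and 0.83 in cells labelled HO1-/-. In that order it averaged 11.85 and 12.105 with HO2 shRNA, and 8.92 and 11.27 with scrambled shRNA. Vnn3, H2-M2, Orm2 and Orm1 fell by more in cells labelled HO1-/- (-2.79, -3.31, -2.75 and -1.96), and 19 of 24 acute phase genes had a more negative change there and 0 a more positive one. Orm2 averaged 7.99 in HO1+/+ cells and 8.10 in cells labelled HO1-/- with HO2 shRNA, and 8.99 and 10.86 with scrambled shRNA. Vnn3 averaged 9.05 and 7.55 with HO2 shRNA, and 10.03 and 10.33 with scrambled shRNA. Ifit3, an interferon-induced gene, was at -0.47 in HO1+/+ cells, a call lost without control replicate 2 (-0.13) or either HO2 knockdown array (-0.48 and -0.46), and rose by 1.21 in cells labelled HO1-/-. In cells labelled HO1-/- the Kupffer cell and macrophage markers summed to 15.51 and 15.59 with HO2 shRNA and 15.60 and 15.56 with scrambled shRNA, above the sums in HO1+/+ cells given earlier. Of those 22 markers 5 rose and 6 fell there, and Adgre1 fell to 9.80 and 10.02 with HO2 shRNA, against 11.19 and 11.21 with scrambled shRNA (log2 fold change -1.29, limma adjusted p = 1.18e-07). The part of these markers, of the weaker knockdown and of unequal levels with scrambled shRNA in the differences between genotypes was not tested.

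**Figure D5:**
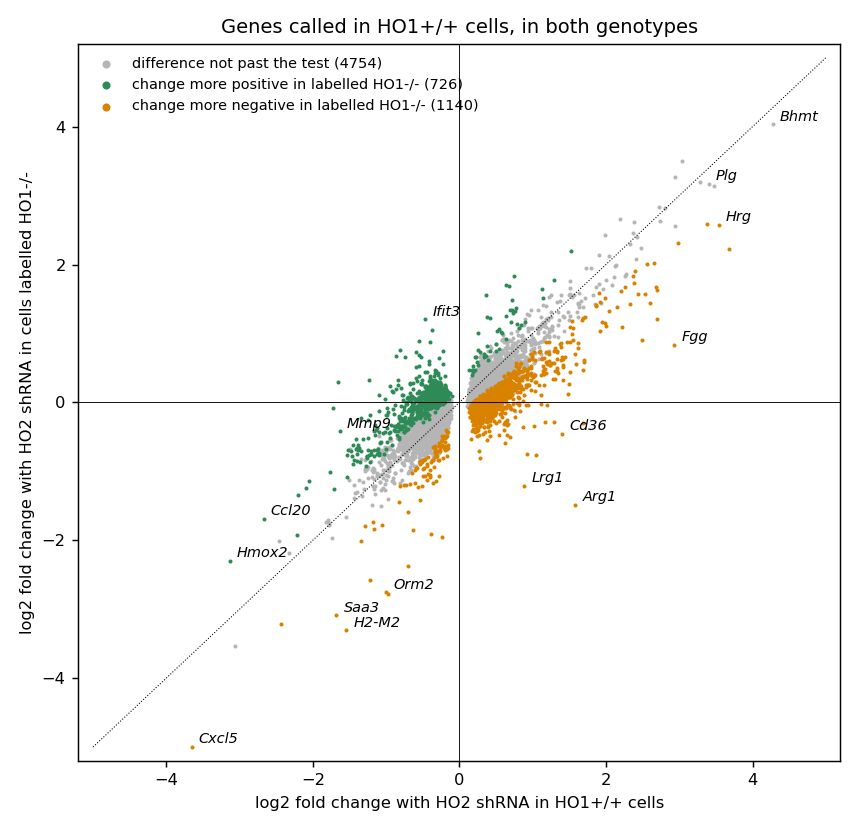
Log2 fold change with HO2 shRNA in HO1+/+ cells (horizontal axis) against that in cells labelled HO1-/- (vertical axis) for the 6620 genes called in HO1+/+ cells, with the line of equality dotted and colours for the called difference between genotypes. For 4754 genes no difference was called, 1140 have a more negative and 726 a more positive change in cells labelled HO1-/-, and Arg1, Lrg1 and Cd36 lie in the lower right quadrant.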

How the data were processed

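Transcript levels in mouse hepatocyte cultures were read on 8 arrays, with 2 in each of the 4 groups that the sample titles give. The authors deposited log2 values made by RMA with affy in R 2.15.0, per the submitters' processing notes, and they were used with no further normalization. Of 34760 probe sets in the deposited table, 21640 had 1 gene symbol in the platform table, 1321 had several and 11799 had none, and the brightest probe set stood for each of the 954 genes that had more than 1. All 8 arrays were fitted with a mean for each group in limma 3.58.1 (R 4.3.3, eBayes with a mean-variance trend, 4 residual and 11.2 prior degrees of freedom), with Benjamini-Hochberg adjustment over 19937 genes and a threshold of 0.05. The fit was also run on simulated arrays with known changes and noise drawn independently for each gene and array. Such noise holds no deviation shared by the genes of an array, so the simulation does not cover that case. The number of arrays limits the precision.

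The comparison, the gene lists (56, with 1246 of 1353 entries measured) and the named genes were chosen with earlier results of these data known. Genes were named as the targeted pair, the largest changes, key members marked in each list, the largest changes within a list, and the largest differences between genotypes. Outside the lists, the largest changes were ranked among called genes whose groups did not overlap, without predicted genes and small RNAs. Promoter windows are from RefSeq (GRCm38.p6). Arrays with the same replicate number did not deviate together (r = -0.174 between HO2 knockdown and control), so they were not treated as pairs. Alternatives covered the variance model, the arrays in the fit, scaling, dim genes, probe set choice, array weights, a replicate block and leaving out each array.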

Additional observations from a re-analysis of the deposited data

Results flagged for a closer look

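The change with HO2 shRNA in cells labelled HO1-/- minus that in HO1+/+ cells was tested in limma for all genes, and 94 of the 191 named genes had an adjusted p under 0.05 for that difference. Values are log2 differences, and a negative one means a more negative change in cells labelled HO1-/-.

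At or below -1 were Arg1 (-3.064), Fgg (-2.1), Lrg1 (-2.1), Cd36 (-1.854), Cyp4a12a (-1.812), Vnn3 (-1.807), H2-M2 (-1.762), Orm2 (-1.757), Orm1 (-1.717), Saa1 (-1.576), Cyp4a31 (-1.444), Saa3 (-1.412), Cxcl5 (-1.342), Adgre1 (-1.249), Itih4 (-1.156), F9 (-1.145), Ugt3a2 (-1.129), Lcat (-1.119) and Bex1 (-1.068). Between there and -0.5 were Hrg (-0.964), Hal (-0.961), Gpx3 (-0.928), Hsd17b13 (-0.906), Cyp1a2 (-0.9), Agt (-0.871), Nr1i2 (-0.84), Cyp2b10 (-0.79), Mat1a (-0.786), Cxcl2 (-0.778), Cyp8b1 (-0.747), Slco1a4 (-0.725), Cps1 (-0.677), Tfr2 (-0.641), Serpinf2 (-0.634), Hamp (-0.621), Tnf (-0.619), Nr1d1 (-0.589), Nr0b2 (-0.586), Tat (-0.537), Prox1 (-0.53), Ccl2 (-0.517) and Fech (-0.516). Smaller negative differences were those of Erbb3 (-0.495), Acacb (-0.479), Etnppl (-0.473), Hpx (-0.458), Tfrc (-0.455), Aadat (-0.451), Nr1h3 (-0.416), Onecut1 (-0.407), Foxa2 (-0.376), Creb3l3 (-0.364), Glul (-0.359), Btg2 (-0.342), Cry2 (-0.323), Alas1 (-0.32), Cdo1 (-0.316), Clock (-0.313), Gpc3 (-0.304), Hnf4a (-0.287) and Ttr (-0.262).

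A more positive change in cells labelled HO1-/- was found for Ifit3 (1.674), Mmp9 (1.213), Mmp13 (1.088), Cyp7a1 (1.059), Ccl20 (0.983), Vcam1 (0.908), Csf2 (0.855), Serpinb2 (0.849), Hmox2 (0.835), Mcm6 (0.834), Cd40 (0.802), Cdk1 (0.776), Top2a (0.772), Exo1 (0.732), Lect2 (0.689), Psmb10 (0.634), Aurkb (0.629), Slc40a1 (0.618) and Ccl3 (0.607), and by smaller amounts for Cdc6 (0.499), Itgav (0.497), Slc1a2 (0.469), Rrm2 (0.458), Bub1 (0.453), Alad (0.435), Afp (0.375), Hmox1 (0.34), Irf1 (0.338), Fdps (0.329), Ccnd1 (0.318), Ccl7 (0.304), Tgfbr1 (0.291) and Cth (0.278).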

How the results depend on the processing

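As deposited, 3293 genes were higher and 3327 lower in HO2 knockdown. With the replicate number as a block (replicate block) 3266 were higher and 3165 lower, and with the numbers of the HO2 knockdown arrays exchanged, an alternative chosen after seeing the data, 3247 and 3219. Leaving out 1 array gave between 2126 and 4672 genes lower, with 2126 and 2196 without HO2 knockdown replicates 1 and 2. The count of genes whose change differed between genotypes, 2442, was 1359 without the mean-variance trend and ranged from 1301 to 4744 when 1 array was left out. Where an array was left out, the lone array of its group was assumed to vary like the other groups. Counts of genes changed at least 2-fold stayed within 1.5 times 241 and 153 under the alternatives run. Of 191 named genes, 176 were called, 8 of these lost the call under some alternative, the largest of them at an absolute log2 fold change of 0.47, 3 gained one, and none reversed. The setting restricted to genes at or above the median signal held 159 of the named genes. The causes of these shifts were not tested. With 2 arrays a group and 1 hairpin, small changes and effects of the hairpin itself are the main limits.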
